A study of Mus musculus with 11 samples.

Results

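The 8 of 11 libraries whose cells carried at least 1 intact copy of *Sp3* were separated by the ending of their titles, to describe which cell programs varied between cultures at intact *Sp3*. All were RNA-seq libraries of primary mouse fetal lung mesenchymal cells taken at embryonic day 15 (E15), and all 8 titles held the word CTRL. The no-suffix group held the 2 libraries whose titles ended there: 468-4, from an Sp3+/+ (wild-type) embryo, and 697-4, from an Sp3+/- embryo with 1 copy of the gene. The suffix group held 6 libraries whose titles went on to a number: the Sp3+/- library 468-3 with the number 2, and with the number 3 the Sp3+/+ libraries 685-2, 697-1 and 697-3 and the Sp3+/- libraries 685-5 and 685-7. The title of 697-4 was followed here, although the name of its file carries the number 2, and results without it are given. Neither the labels nor the methods explain this number or the leading number of a title (468, 685 or 697). The embryos came from matings of Sp3 heterozygous mice, and no other allele or agent was named for these cultures. The 3 Sp3-/- (null) libraries, 685-1, 697-2 and 697-5, also had titles without a closing number. They were kept out of the main fit, entered only an alternative fit over all 11 libraries, and are otherwise given for reference.

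Fetal lung mesenchyme surrounds the branching airway epithelium and gives rise to fibroblasts, airway and vascular smooth muscle, lipid-storing fibroblasts and pericytes. It lays down collagen and elastin and signals to the epithelium through FGF, BMP, Wnt and hedgehog pathways. Cultures of it are obtained because these cells stick quickly to plastic and divide there. Macrophages, which settle in the lung before birth, also stick to plastic. Sp3 is a zinc finger protein that binds GC-rich promoters and can activate or repress transcription. The cells were obtained by digestion, adhesion and passage, and no sort was described for them.

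Between 13842791 and 59297495 reads per library lay on genes, with 35351093 in 468-4 and 20266543 in 697-4, so the no-suffix libraries were inside the range of the suffix libraries. The share of reads assigned to no gene was 38.8% to 40.9%. No pair among the 8 libraries agreed within sampling noise: the lowest of 28 chi-square values per degree of freedom was 12.8. Each library was taken as a replicate. The labels do not say that replicates of a genotype were separate cultures, so p-values measure the spread between these libraries. The 7 mesenchymal markers checked (*Col1a1*, *Col1a2*, *Pdgfra*, *Pdgfrb*, *Vim*, *Tbx4* and *Foxf1*) were above a CPM of 1 (counts scaled to the library total) in all 8 libraries. *Epcam*, an epithelial adhesion gene, had at most 10 reads in any of them, and the globin genes *Hba-a1* and *Hbb-bs* were at 0. *Xist*, transcribed from the inactive X chromosome, was at 9.29 log2 CPM in 685-5 and at or below -1.07 in the other 7, so 685-5 was the library with a female pattern. Levels below are log2 CPM after TMM scaling, and differences are no-suffix minus suffix from a fit with genotype as a term, given with their standard error (s.e.). The s.e. was derived from the test of that fit, as the size of the difference divided by the square root of its F statistic.

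*Sp3* itself did not separate the groups. Its level was 6.52 in 468-4 and 5.81 in 697-4, and ran from 5.70 to 6.75 with a median of 6.07 in the suffix libraries. The fitted difference was 0.01 ± 0.20 (adjusted p = 0.975). The 3 null libraries were at 3.86 to 4.24. *Sp1*, which encodes the related activator, was at 6.96 and 7.15 against 6.98 to 7.25, a difference of -0.06 ± 0.10 (adjusted p = 0.707).

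On principal components of 11227 genes, the no-suffix libraries stood far from the others. The first component held 56.4% of the variance and placed 468-4 at 42.6 and 697-4 at 36.3. The suffix libraries lay between -20.5 and -1.71 on it, with 697-3 nearest to the no-suffix pair. Sp3+/+ and Sp3+/- libraries were mixed along this axis.

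**Figure D1:**
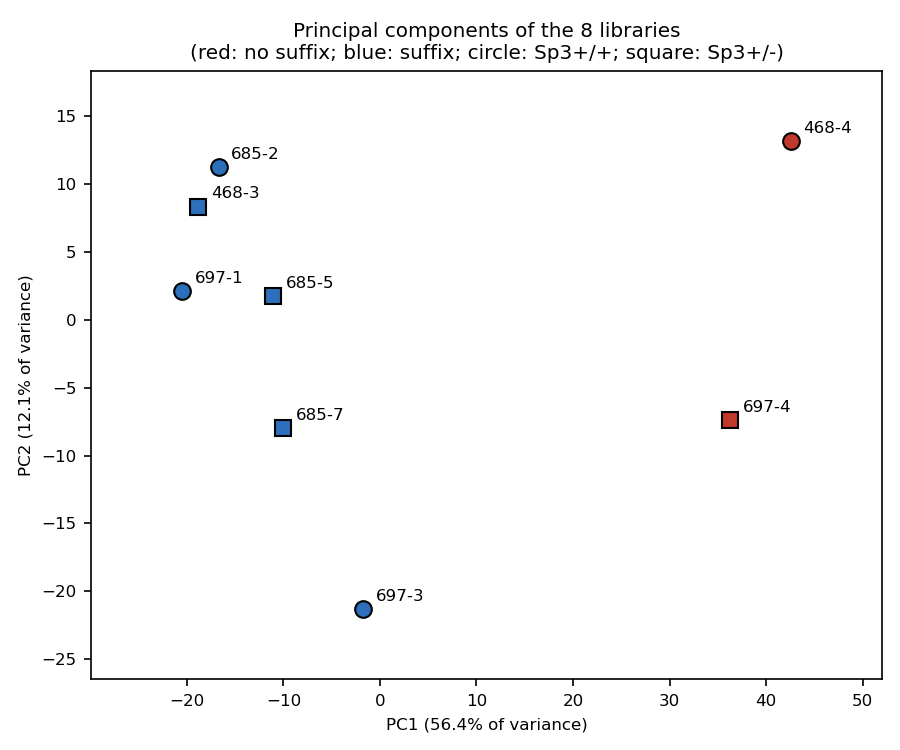
Principal components of the 8 libraries, with the first component (56.4% of variance) on the x axis and the second (12.1%) on the y axis, in log2 CPM score units. The 2 no-suffix libraries (red) lie to the right at 42.6 and 36.3, while the 6 suffix libraries (blue) lie at or left of -1.71, and circles (Sp3+/+) and squares (Sp3+/-) are found in both groups.

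A total of 13833 genes passed the filter, a CPM above 1 in any of the 8 libraries. By the quasi-likelihood test of edgeR, 2761 of them (20.0%) differed at a Benjamini-Hochberg adjusted p under 0.05. Of these, 1378 were higher (9.96%) and 1383 lower (10.0%) without the suffix. Changes of more than 2-fold were found for 633 of the higher and 384 of the lower genes. The 2 groups did not overlap in 36.2% of all tested genes, 17.0% being higher and 19.2% lower in both no-suffix libraries. The median difference over all tested genes was -0.01. Leaving out 468-4 left 356 calls and leaving out 697-4 left 1366, and with 1 no-suffix library that library was assumed to vary like the rest. A fit over all 11 libraries called 760 genes higher (5.38%) and 596 lower (4.22%), among them 21 of the macrophage and 17 of the G2 and mitosis genes below. Other lists below lost more calls there. It called 8 of 35 matrix, 10 of 24 DNA replication, 3 of 21 cholesterol synthesis and 4 of 21 mesenchyme transcription factor genes lower. Of 22 lysosomal genes it called 5 higher. The edgeR test of that fit gave adjusted p = 0.278 for *Col1a1*, 0.067 for *Eln* and 0.085 for *Mki67*. Gene lists are described next by how many of their members were called, beside these background shares.

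Macrophage genes were higher without the suffix. Of 24 tested, 23 rose and none fell, against 9.96% called higher among all genes, and the list's median difference was 2.29. *Csf1r*, the receptor for the growth factor on which macrophages depend, was at 7.35 in 468-4 and 7.20 in 697-4, and at 4.39 to 5.33 with a median of 4.97 in the suffix libraries. The groups were well apart, and the difference was 2.30 ± 0.17, or 4.92-fold (adjusted p = 9.25e-05). *Cd68*, a lysosomal glycoprotein of phagocytes, was at 7.69 and 7.25 against 4.54 to 5.39 (median 5.12), a difference of 2.37 ± 0.11 (adjusted p = 3.39e-05). *Emr1*, which encodes the F4/80 antigen of mouse macrophages, was at 7.05 and 6.52 against 3.36 to 4.42 (median 4.15), and rose by 2.70 ± 0.16 (adjusted p = 5.47e-05). *Cybb*, the catalytic subunit of the phagocyte NADPH oxidase, rose by 2.69 ± 0.19 (adjusted p = 9.02e-05). *Lcp1*, an actin-bundling protein of blood cells, was at 7.47 and 7.05 against 4.85 to 5.73, a rise of 1.77 ± 0.15 (adjusted p = 1.52e-04). For *Lyz2*, which encodes lysozyme and shares sequence with *Lyz1* so that the split of reads between them is uncertain, the rise was 2.38 ± 0.23 (adjusted p = 3.54e-04). All of these genes kept their call when any 1 of the 8 libraries was left out.

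Expressed as a sum, the 24 macrophage genes made up 4742 CPM in 468-4 and 4143 CPM in 697-4, against 514 to 1199 CPM in the suffix libraries and 4504 to 15662 CPM in the null libraries. Thus macrophage transcripts were present in all 8 cultures, and the 2 groups did not overlap. All 8 defining markers of the class were above 1 CPM in every suffix library, their sum being 850 and 661 CPM without the suffix and 89.1 to 186 CPM with it. In the same libraries the 7 mesenchymal markers summed to 11845 and 13443 CPM without the suffix and 18393 to 19397 CPM with it. Most of that sum was type I collagen, with suffix medians of 8419 CPM for *Col1a1* and 7172 CPM for *Col1a2*. *Vim*, another of the 7, was not lower, at 11.59 and 11.46 log2 CPM against 11.40 to 11.52. In bulk RNA, fewer cells of a type and less RNA per cell cannot be told apart. These sums separated the same libraries as the gene groups that differed below, and their part in those results was not tested.

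The window before the start of the 2 macrophage genes with the largest difference that had a RefSeq promoter entry (GRCm38.p6) is shown because these genes moved together. Capitals mark GAGGAA, the core bound by the myeloid factor PU.1, on either strand. *Ctss* lies on the + strand at chr3:95526536-95526785 and *Cybb* on the - strand at chrX:9469325-9469574. The first holds 1 such match and the second none in these 250 bases.
Ctss: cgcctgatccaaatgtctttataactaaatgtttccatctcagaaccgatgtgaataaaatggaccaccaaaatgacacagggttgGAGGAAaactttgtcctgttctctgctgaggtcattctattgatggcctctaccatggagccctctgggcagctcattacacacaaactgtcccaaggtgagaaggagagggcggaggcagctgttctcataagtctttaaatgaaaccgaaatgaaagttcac
Cybb: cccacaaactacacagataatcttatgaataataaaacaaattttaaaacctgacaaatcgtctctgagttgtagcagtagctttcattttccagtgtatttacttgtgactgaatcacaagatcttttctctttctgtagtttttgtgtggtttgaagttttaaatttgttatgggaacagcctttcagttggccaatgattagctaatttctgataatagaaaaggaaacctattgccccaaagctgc

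*Ctss*, encoding the lysosomal protease cathepsin S, was at 8.63 and 7.84 against 4.46 to 5.78 (median 5.53), a difference of 2.80 ± 0.24 (adjusted p = 1.68e-04). Over windows of 250 bases before to 50 after the start, the letters occurred on either strand in 11 of 16 macrophage genes with an entry (68.8%) and in 26.7% of 10999 tested genes with one. A match describes the letters only.

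Several of the largest rises lay outside this list. *Slc11a1*, a metal transporter of the phagosome membrane, had the smallest adjusted p among the largest rises. It was at 6.09 and 5.45 against 2.39 to 3.22 (median 2.82), and rose by 2.93 ± 0.11, or 7.60-fold (adjusted p = 1.22e-05). *Trem2*, a lipid-sensing receptor of macrophages and microglia, was at 6.91 and 6.25 against 3.20 to 4.17, a rise of 2.72 ± 0.13 (adjusted p = 3.39e-05). *Clec7a*, the receptor for fungal beta-glucan, rose by 2.90 ± 0.25 (adjusted p = 1.81e-04). The lectin receptor gene *Clec4d* rose by 2.72 ± 0.21 and the inhibitory receptor gene *Cd300a* by 2.72 ± 0.20. *Cxcr4*, the receptor for the chemokine encoded by *Cxcl12*, was at 5.51 and 5.13 against 2.06 to 3.11, a rise of 2.81 ± 0.20 (adjusted p = 9.25e-05), whereas *Cxcl12* fell by 1.06 ± 0.23 (adjusted p = 0.014). *Cd28*, best known as a costimulatory receptor of T cells, was the largest rise of all above the level minimum, at 5.62 and 4.97 against 1.46 to 3.02 (3.00 ± 0.24, adjusted p = 1.37e-04). *Csf2rb* rose by 2.74 ± 0.20 and its near-identical neighbour *Csf2rb2* by 2.71 ± 0.24. They encode beta chains of cytokine receptors, and the split of reads between them is uncertain.

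Lysosomal and lipid genes rose as well. Of 22 lysosomal genes, 12 rose and none fell (median 0.48). Without 468-4 fewer were called higher, and the median was 0.36. Without 697-4 the median was 0.67. In 14 of the 22 the groups did not overlap, against 17.0% of all genes. *Gpnmb*, a glycoprotein of lysosome-rich cells, was at 11.46 and 11.03 against 8.62 to 9.49 (median 8.90), a rise of 2.27 ± 0.16 (adjusted p = 9.02e-05). *Lipa*, the acid lipase that frees cholesterol in lysosomes, was at 9.01 and 8.41 against 7.20 to 7.48, a rise of 1.36 ± 0.10 (adjusted p = 9.25e-05). The cathepsin genes *Ctsb* and *Ctsd* rose by 1.21 ± 0.10 and 1.08 ± 0.11, and *Psap*, a saposin precursor, by 0.69 ± 0.10. *Atp6v0d2*, a proton pump subunit, rose by 2.76 ± 0.28 (adjusted p = 4.55e-04). Members of this list therefore differed from less than 2-fold to 6.78-fold.

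Of 16 lipid storage genes tested, 10 rose and 3 fell (median 1.01). Fits without 468-4 or 697-4 called fewer, with medians of 0.73 and 1.00. *Lpl*, which releases fatty acids from lipoproteins, was at 8.19 and 7.34 against 5.47 to 6.25 (median 6.02), a rise of 1.78 ± 0.16 (adjusted p = 2.01e-04). *Fabp4*, a fatty acid carrier of adipocytes and macrophages, was at 5.29 and 5.21 against 3.11 to 3.75, a rise of 1.81 ± 0.12 (adjusted p = 8.22e-05). *Apoe*, a lipoprotein component, was at 10.9 and 10.5 against 7.71 to 8.42, a rise of 2.60 ± 0.17 (adjusted p = 8.17e-05). The scavenger receptor gene *Cd36* rose by 2.70 ± 0.26 and *Plin2*, which coats lipid droplets, by 0.89 ± 0.12. In the other direction went *Plin4*, another droplet coat gene, which fell by 2.19 ± 0.50 on the log2 scale (adjusted p = 0.018), and *Scd1*, a desaturase of fatty acid synthesis, which fell by 1.10 ± 0.18 (adjusted p = 0.005). *Apoe*, *Cd36*, *Fabp4* and *Lpl* are all known to be made by macrophages too.

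Genes of antigen presentation rose in 5 of 13 and fell in none (median 0.62). With 468-4 or 697-4 left out fewer were called, and the medians were 0.45 and 0.81. *Nlrc5*, a regulator of class I genes, was at 2.72 and 2.97 against 0.88 to 1.34 (1.71 ± 0.17, adjusted p = 4.31e-04). The class I genes *H2-D1* and *H2-K1* rose by 1.08 ± 0.16 and 0.62 ± 0.15, and share sequence with each other. *B2m*, their shared light chain, was at 9.66 and 9.30 against 9.10 to 9.49 and did not pass (0.20 ± 0.13, adjusted p = 0.292). Interferon response genes did not rise: 0 of 19 were called higher and 2 lower, *Ddx58* at -0.56 ± 0.12 and *Gbp2* at -0.63 ± 0.12. Of 14 chemokine and cytokine genes 5 rose and 1 fell (median 0.36). Fewer were called without 468-4 (median 0.71) or without 697-4 (median 0.35). *Ccl3*, *Ccl4* and *Ccl9*, whose products attract leukocytes, rose by 1.92 ± 0.17, 2.04 ± 0.35 and 1.66 ± 0.17. Among 15 complement genes, those for the anaphylatoxin receptors, *C3ar1* (2.36 ± 0.24) and *C5ar1* (1.31 ± 0.35), and for properdin, *Cfp* (1.27 ± 0.10), rose, and *Masp1*, a lectin pathway protease, fell by 1.00 ± 0.16.

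**Figure D2:**
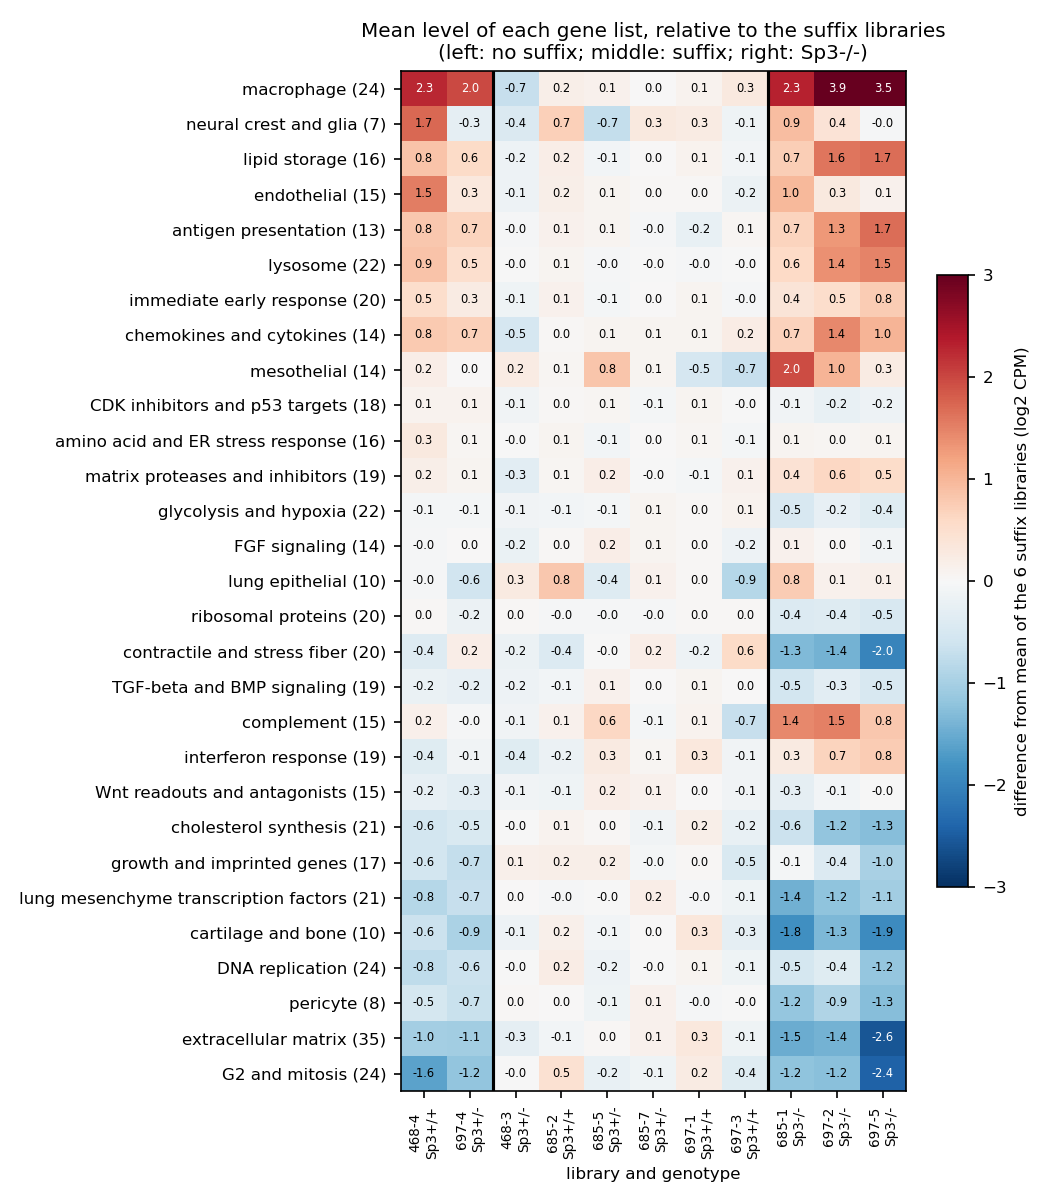
Mean level of each gene list (number of tested members in brackets) in each library, as the difference in log2 CPM from the mean of the 6 suffix libraries, with no-suffix libraries left, suffix libraries in the middle and Sp3-/- libraries right. Red cells are higher and blue cells lower: macrophage genes are at 2.3 and 2.0 in 468-4 and 697-4, and G2 and mitosis genes at -1.6 and -1.2.

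Cell division genes were lower without the suffix. All 24 genes of G2 and mitosis fell, against 10.0% called lower among all genes, with a median difference of -1.41, and none rose. *Mki67*, which marks cycling cells, was at 5.83 in 468-4 and 6.13 in 697-4 and at 6.69 to 7.57 with a median of 7.03 in the suffix libraries (-1.09 ± 0.25, adjusted p = 0.018). *Plk1*, a kinase of mitotic entry, was at 2.10 and 2.89 against 3.91 to 4.77 (-1.80 ± 0.29, adjusted p = 0.005). *Cenpf*, a kinetochore gene, was at 3.25 and 3.67 against 4.70 to 5.82 (-1.83 ± 0.31, adjusted p = 0.006). *Top2a*, which untangles replicated DNA, fell by 1.43 ± 0.24 (adjusted p = 0.005) and *Ccnb2*, a mitotic cyclin gene, by 1.72 ± 0.32 (adjusted p = 0.008). No member of the list overlapped between the groups. The number of calls depended on 468-4 far more than on 697-4. Without 468-4, 1 of the 24 was called (0.357% of all genes were then called lower), with a median of -1.07. Without 697-4, 22 of the 24 were called (4.09% of all genes were then called lower), with a median of -1.76.

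Windows of 250 bases before the start of the 2 genes of this list with the largest fall are shown, with CCAAT (the box bound by NF-Y) and TTTGAA (the cell cycle homology region) in capitals on either strand. *Cenpf* is on the - strand at chr1:189688087-189688336 and *Plk1* on the + strand at chr7:122159185-122159434. Both hold the box, with 2 matches in *Cenpf* and 1 in *Plk1*, and neither holds TTTGAA in the bases shown.
Cenpf: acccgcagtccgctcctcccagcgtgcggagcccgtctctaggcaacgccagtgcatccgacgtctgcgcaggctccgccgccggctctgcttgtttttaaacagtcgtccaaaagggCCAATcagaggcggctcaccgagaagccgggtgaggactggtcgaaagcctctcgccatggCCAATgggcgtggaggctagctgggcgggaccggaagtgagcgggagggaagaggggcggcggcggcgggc
Plk1: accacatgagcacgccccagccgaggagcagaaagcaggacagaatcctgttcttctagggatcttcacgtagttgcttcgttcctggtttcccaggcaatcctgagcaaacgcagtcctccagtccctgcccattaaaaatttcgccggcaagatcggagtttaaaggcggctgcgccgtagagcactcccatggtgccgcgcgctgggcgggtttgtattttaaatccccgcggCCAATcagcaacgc

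With the 50 bases after the start included, TTTGAA occurred in 15 of 21 G2 and mitosis genes with an entry (71.4%) and in 11.6% of 10999 tested genes, and CCAAT in 18 of 21 (85.7%) and in 38.4%. These are shares of letters in RefSeq windows of GRCm38.p6, and nothing about a factor was measured.

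Of 24 DNA replication genes, 19 fell and none rose (median -0.70). *Ccne1*, the cyclin E1 gene, which acts at the start of S phase, was at 4.02 and 4.27 against 4.71 to 4.99 (median 4.86), a difference of -0.72 ± 0.11 (adjusted p = 0.003). The helicase subunit genes *Mcm4* and *Mcm6* fell by 0.69 ± 0.10 and 0.77 ± 0.12, and *Cdc6*, a licensing factor, by 1.35 ± 0.21. Without 468-4 none of the 24 was called, with a median of -0.55. Cell cycle inhibitors and p53 targets went both ways, with 5 of 18 higher and 3 lower (median 0.16). Fewer were called without 468-4 (median 0.26) or without 697-4 (median 0.09). *Cdkn2a*, which encodes p16 and ARF, was at 7.90 and 7.07 against 5.97 to 6.52 (1.38 ± 0.20, adjusted p = 0.003). *Cdkn1a*, encoding p21, was higher by 0.36 ± 0.11 (adjusted p = 0.047), a call that was kept in only 1 of 8 fits without a library, and *Cdkn1c*, an imprinted inhibitor gene, fell by 0.99 ± 0.21 (adjusted p = 0.013).

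**Figure D3:**
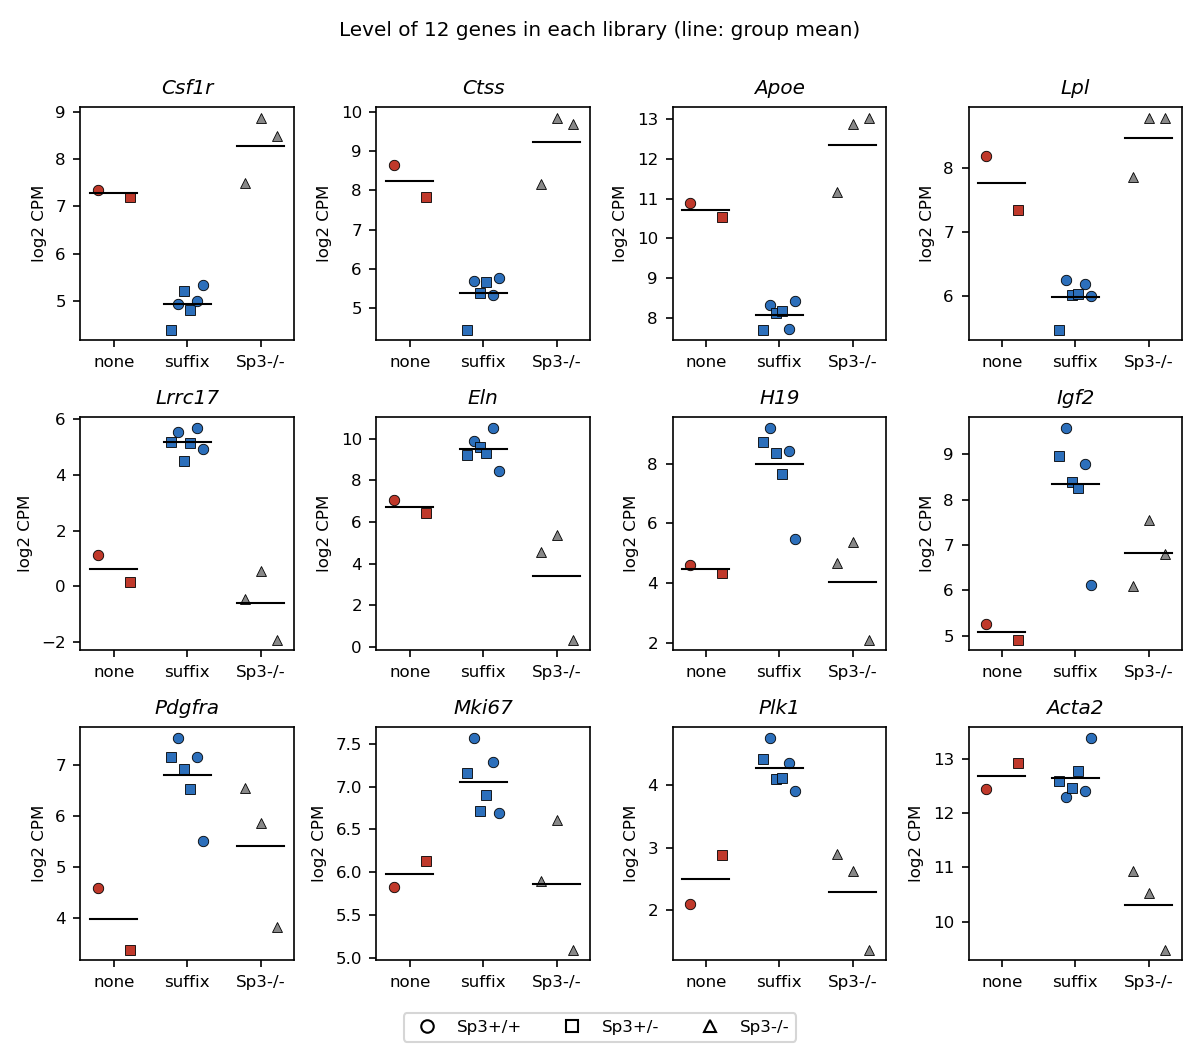
Level (log2 CPM, y axis) of 12 genes in the no-suffix (red), suffix (blue) and Sp3-/- (grey) libraries, with a point per library and a line at each group's mean. *Csf1r*, *Ctss*, *Apoe* and *Lpl* are higher in both no-suffix libraries than in any suffix library, *Lrrc17*, *Eln*, *H19*, *Igf2*, *Pdgfra*, *Mki67* and *Plk1* are lower, and *Acta2* overlaps.

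Extracellular matrix genes were lower without the suffix. Of 35 tested, 21 fell and none rose, with a median of -0.80. *Eln*, the elastin gene, was at 7.04 and 6.41 against 8.45 to 10.5 (median 9.47), and fell by 2.90 ± 0.50 on the log2 scale, or 7.47-fold (adjusted p = 0.006). *Lrrc17*, a secreted leucine-rich repeat protein gene, was at 1.12 and 0.15 against 4.51 to 5.70 (median 5.16), and fell by 4.54 ± 0.35, or 23.3-fold (adjusted p = 1.08e-04). *Mfap4*, which belongs to elastic fibres, was at 1.79 and 2.16 against 3.62 to 6.27 (-2.85 ± 0.73, adjusted p = 0.028). *Col1a1*, a chain of type I collagen, was at 12.2 and 12.4 against 12.9 to 13.1 (-0.71 ± 0.11, adjusted p = 0.004). The genes of the list with the highest levels did not pass: fibronectin, *Fn1*, was at 13.6 and 13.4 against 13.5 to 14.0 (-0.31 ± 0.15, adjusted p = 0.202), *Sparc* at 12.9 and 13.4 against 12.8 to 13.4, and *Thbs1* at 12.8 and 12.8 against 12.6 to 13.3. Without 468-4 or 697-4 fewer of the 35 were called lower, and the medians were -0.63 and -0.84.

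Regulators of lung mesenchyme were lower too: 11 of 21 transcription factor genes fell and none rose (median -0.64). Without 468-4 or 697-4 fewer were called lower, and the medians were -0.56 and -0.86. *Gli2*, the activator of hedgehog signaling, was at 1.45 and 2.27 against 3.79 to 4.40 (median 3.94), a difference of -2.15 ± 0.27 (adjusted p = 0.001). *Tcf21*, a factor of fibroblast progenitors, was at 1.02 and 1.38 against 1.82 to 3.80 (-1.94 ± 0.48, adjusted p = 0.024). *Prrx1* fell by 1.67 ± 0.33 (adjusted p = 0.01), *Foxp1* by 0.64 ± 0.15 and *Zfpm2* by 0.63 ± 0.13. Both PDGF receptor genes fell. *Pdgfra* was at 4.59 and 3.38 against 5.51 to 7.54 (-2.86 ± 0.56, adjusted p = 0.01), and *Pdgfrb* at 7.89 and 8.01 against 8.53 to 9.07 (-0.93 ± 0.16, adjusted p = 0.006). In the pericyte list, which holds these receptors, 3 of 8 fell (median -0.70). Fewer were called lower without 468-4 (median -0.88) or without 697-4 (median -0.41). *Anpep*, an aminopeptidase also made by myeloid cells, rose by 1.88 ± 0.10 (adjusted p = 4.14e-05), while *Cspg4*, the NG2 proteoglycan, did not pass (-0.87 ± 0.48, adjusted p = 0.242).

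Signaling lists moved less uniformly. Among 19 TGF-beta and BMP genes, 5 fell and 3 rose (median -0.18). Fewer were called without 468-4 (median -0.29) or without 697-4 (median -0.05). *Ltbp1*, which tethers latent TGF-beta to the matrix, was at 7.26 and 7.41 against 8.590 to 8.996 (-1.47 ± 0.14, adjusted p = 3.01e-04), and *Bmp5* fell by 1.38 ± 0.27. Of 14 FGF genes, *Fgfr2* was the only one called, at 5.66 and 5.65 against 6.53 to 6.84 (-0.99 ± 0.11, adjusted p = 6.42e-04). Of 15 Wnt readouts and antagonists, 3 fell, among them the antagonist genes *Frzb* (-1.31 ± 0.27) and *Sfrp1* (-0.86 ± 0.23), and the ligand gene *Wnt2* rose by 1.30 ± 0.24. None of the Wnt list was called without 468-4.

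Among 17 growth and imprinted genes, 7 fell and 1 rose. The list's median was -0.53. Fits without 468-4 (median -0.62) or without 697-4 (median -0.49) called fewer of its members. *H19*, an imprinted noncoding RNA, was at 4.61 and 4.34 against 5.48 to 9.21 with a median of 8.39 (-3.85 ± 0.90, adjusted p = 0.02). Its neighbour *Igf2*, a fetal growth factor, was at 5.26 and 4.90 against 6.12 to 9.59 with a median of 8.59 (-3.57 ± 0.82, adjusted p = 0.018). In both, library 697-3 gave the lowest suffix value and the next lowest were 7.67 and 8.25. *Grb10* and *Peg3*, also imprinted, fell by 0.88 ± 0.17 and 0.53 ± 0.13. *Igfbp2*, an IGF-binding protein gene, rose by 1.82 ± 0.37 (adjusted p = 0.011).

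Cholesterol synthesis genes were lower in 16 of 21 and higher in none (median -0.50). *Cyp51*, a demethylase of the pathway, was at 7.26 and 7.21 against 7.58 to 8.15 (median 7.91), a difference of -0.66 ± 0.14 (adjusted p = 0.013). *Insig1*, which holds back the activator of the pathway, was at 7.46 and 7.23 against 7.73 to 8.15 (-0.61 ± 0.14, adjusted p = 0.017). *Lss* and *Hmgcs1*, which encode enzymes of the pathway, fell by 0.67 ± 0.16 and 0.57 ± 0.17. Fewer of the 21 were called without 468-4 (median -0.36) or without 697-4 (median -0.54). With the leading number as a term, 2 were called lower, where 4.71% of all genes were.

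Of 20 immediate early genes, 8 rose and 2 fell (median 0.37). Leaving out 468-4 or 697-4 gave fewer calls, with medians of 0.34 and 0.35. *Atf3*, a stress-induced factor, was at 6.99 and 6.19 against 3.86 to 4.70 (2.26 ± 0.17, adjusted p = 1.03e-04), and *Jun* at 6.66 and 6.44 against 5.80 to 6.12 (0.59 ± 0.10, adjusted p = 0.006). *Egr2*, which also acts in macrophages and Schwann cells, rose by 1.88 ± 0.27. Of 16 genes of the amino acid and ER stress response, 4 rose and 2 fell (median 0.10). Fewer were called without 468-4 (median 0.08) or without 697-4 (median 0.13). *Slc7a11*, a cystine transporter, was at 6.41 and 5.37 against 3.59 to 4.43 (1.87 ± 0.20, adjusted p = 6.53e-04). Matrix proteases were mixed at 3 of 19 in each direction (median -0.02). Fewer were called without 468-4 (median 0.06) or without 697-4 (median 0.09). *Mmp12*, macrophage elastase, rose by 2.55 ± 0.26, and *Plat*, tissue plasminogen activator, fell by 1.09 ± 0.15.

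Several programs did not follow the suffix. Of 20 contractile genes, *Cyr61* was called higher and *Smtn* lower, and the list's median was -0.12. *Acta2*, smooth muscle actin, was at 12.4 and 12.9 against 12.3 to 13.4 (0.00 ± 0.29, adjusted p = 0.996) and *Tagln* at 12.3 and 12.6 against 11.8 to 12.7 (0.27 ± 0.23, adjusted p = 0.438). None of 20 ribosomal protein genes and none of 10 lung epithelial genes was called at an adjusted p under 0.05 by edgeR. Of 22 glycolysis and hypoxia genes only *Vegfa* was (-0.36 ± 0.09, adjusted p = 0.02). Mesothelial genes, from the cells that cover the lung, were called in 1 of 14 (*Krt19*, lower), with *Msln* at 8.22 and 7.80 against 6.36 to 9.37. Cartilage and bone genes were different, as that list leaned lower without the suffix. Of 10 tested, 3 fell and none rose, against 10.0% called lower among all genes (median -0.66). Another 5 listed genes (*Sp7*, *Alpl*, *Bglap*, *Ibsp* and *Comp*) were below the filter. Fewer members were called lower without 468-4 or without 697-4. The median was -0.32 without 468-4 and -0.59 without 697-4. List means were 2.97 and 2.67 against 3.35 to 3.95. *Acan* had 3 and 1 reads against 15 to 480, *Col11a1* fell by 0.73 ± 0.21 and *Matn2* by 1.25 ± 0.32. The calls of *Acan* and *Matn2* were each kept in 4 of 8 fits without a library, and that of *Col11a1* in 2 of 8. *Spp1*, encoding osteopontin, did not pass (0.29 ± 0.37).

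Several endothelial genes were high in 468-4 and less so, or not, in 697-4. *Pecam1*, the CD31 gene of endothelium and some leukocytes, had 274 reads in 468-4, 15 in 697-4 and 2 to 16 in the suffix libraries. These libraries differ in depth, and its level was 2.96 and -0.31 against -2.42 to -1.56, so 697-4 was also above the suffix range. *Cdh5*, the endothelial cadherin gene, had 318, 8 and 0 to 10 reads, and *Tie1* 94, 4 and 0 to 3. No fold is given for these because the suffix libraries held so few reads. *Vwf*, the von Willebrand factor gene, was high in both instead, at 4.39 and 4.65 against 1.39 to 2.64 (2.39 ± 0.21, adjusted p = 1.84e-04). *Emcn*, another endothelial marker, was at 4.74 and 2.03 against -0.41 to 1.95. Not all endothelial genes rose. *Kdr* leaned lower and did not pass (-1.06 ± 0.46, adjusted p = 0.142), and *Eng* did not pass either (0.005 ± 0.142, adjusted p = 0.986). The 6 endothelial markers checked summed to 70.2 and 28.5 CPM without the suffix and 27.3 to 70.6 CPM with it, so these sums overlapped. Most of the sum in the suffix libraries was *Kdr*, with a median of 46.9 CPM there. The suffix medians of *Pecam1*, *Cdh5* and *Emcn* were 0.19, 0.16 and 1.35 CPM, so the sum says little about these 3 genes. Endothelial genes were called higher in 6 of 15, against 9.96% of all genes (median 0.67). *Pecam1*, *Cdh5* and *Tie1* passed the filter only through 468-4, where they were high, so any calls of theirs were favoured by the filter. Without 468-4 the median over the members still tested was -0.29. No gene passed a test of the difference between the 468-4 and 697-4 contrasts by edgeR, *Pecam1* included (adjusted p = 0.931).

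Set against its own genotype, 468-4 differed from the 3 Sp3+/+ suffix libraries in 1363 genes (806 higher, 5.83%, and 557 lower, 4.03%). Library 697-4 differed from the 3 Sp3+/- suffix libraries in 369 genes (313 higher, 2.26%, and 56 lower, 0.405%). In each contrast the no-suffix arm is 1 library, assumed to vary like the libraries of the other classes, from which the spread was taken. The contrasts share no library. Across 11227 genes with a mean level above 2 log2 CPM their differences correlated at Pearson r = 0.80, a description over genes, which are not independent, and 77.7% had the same sign. Called in both were 348 genes, which is 25.5% of the calls for 468-4 and 94.3% of those for 697-4. Macrophage genes were called higher in 22 of 24 for 468-4 and 21 of 24 for 697-4, with medians of 2.23 and 2.24. G2 and mitosis genes were called lower in 22 and 3 of 24, with medians of -1.76 and -1.09. No gene passed a test of the difference between the contrasts by edgeR (471 at an unadjusted p under 0.05), while DESeq2 called 25 and limma-voom none.

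**Figure D4:**
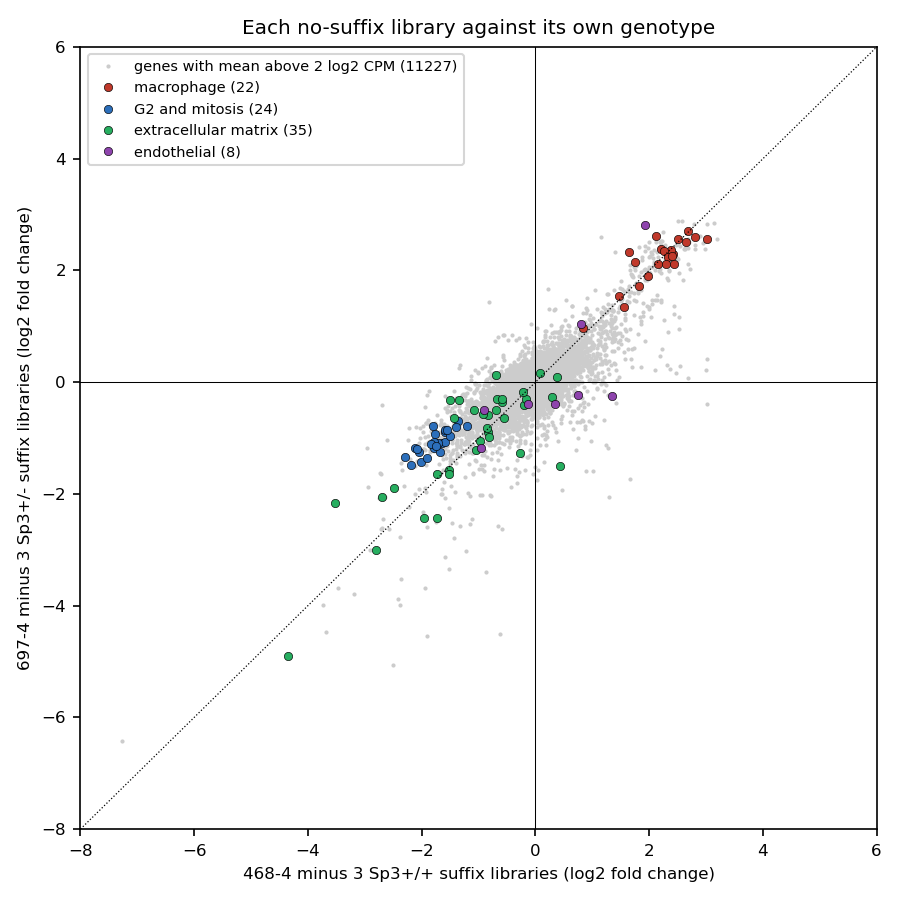
Log2 fold change of 11227 genes in 468-4 against the 3 Sp3+/+ suffix libraries (x axis) and in 697-4 against the 3 Sp3+/- suffix libraries (y axis), with 4 gene lists coloured and the dotted line marking equal change. Macrophage genes lie at the upper right near the line, mitosis genes at the lower left and below 0 on both axes, and endothelial genes scatter, with *Vwf* high on both axes (1.92 and 2.81).

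Values were also taken within a leading number. Library 468-4 could be set against 468-3, and 697-4 against the mean of 697-1 and 697-3, although each of these pairs or trios differs in genotype as well and gives values with no test. The macrophage median was 3.12 in the pair and 1.86 in the trio, and library 468-3 had the lowest macrophage level of all suffix libraries. The G2 and mitosis median was -1.56 and -1.13, and the matrix median -0.65 and -0.81. With the leading number as a further term, 1397 genes were called, 745 higher (5.39%) and 652 lower (4.71%), including 22 macrophage, 18 G2 and mitosis, 11 DNA replication and 14 matrix genes of the same lists. Of 132 genes called among those that the naming rule picked, all kept their sign under this term and 33 lost their call, none with a log2 difference smaller by more than 1.5 times. *H19* was at -3.61 (adjusted p = 0.066), *Igf2* at -3.32 (0.063) and *Mki67* at -1.06 (0.08). The other genes described here that lost it were *Acan*, *Agtr2*, *Cdkn1a*, *Cxcl12*, *Cyp51*, *Cyr61*, *Ddx58*, *Fap*, *Frzb*, *Gbp2*, *Hmgcs1*, *Igfbp2*, *Insig1*, *Krt19*, *Lss*, *Mfap4*, *Sfrp1*, *Sned1*, *Tcf21*, *Vegfa* and *Wnt2*, with adjusted p-values from 0.051 (*Gbp2*, *Insig1*) to 0.151 (*Hmgcs1*). No Wnt or interferon gene of the lists was then called.

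**Figure D5:**
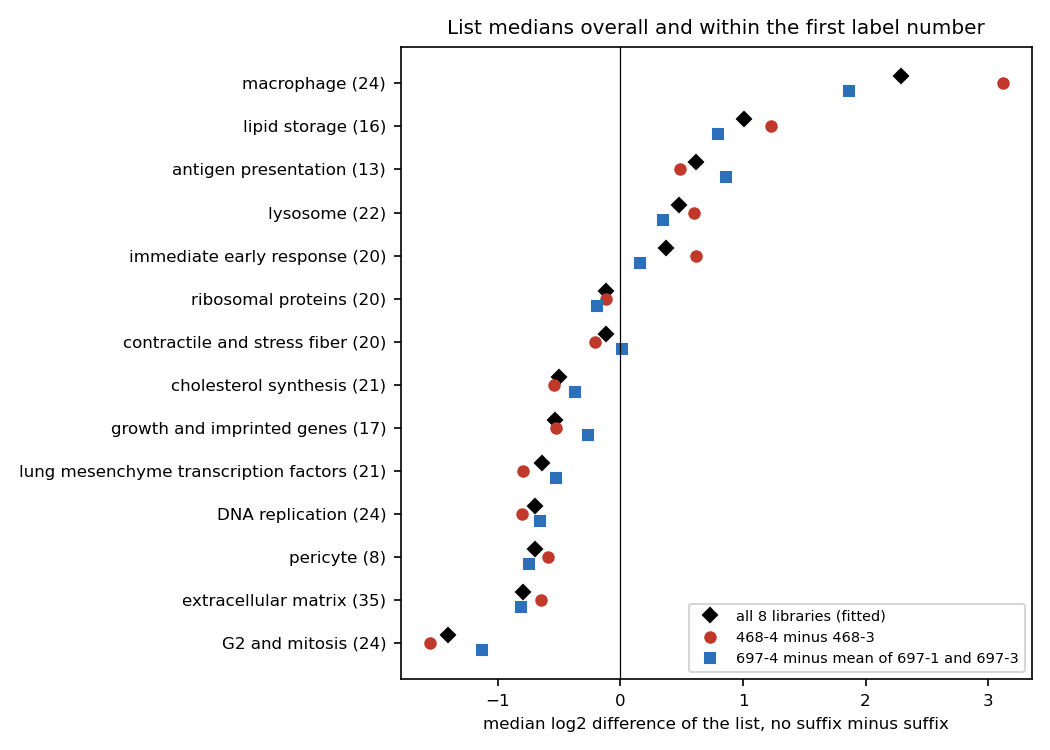
Median log2 difference (x axis, no suffix minus suffix) of 14 gene lists from the fit over 8 libraries (black), within the leading number 468 (red) and within 697 (blue), with the number of tested genes in brackets. Macrophage genes are at 2.29, 3.12 and 1.86, G2 and mitosis genes at -1.41, -1.56 and -1.13, and ribosomal and contractile genes lie near 0.

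The largest falls were in genes of varied roles. *Agtr2*, the fetal angiotensin II type 2 receptor, had 7 and 3 reads without the suffix and 69 to 1242 with it. Its level was -1.93 and -2.22 against 1.08 to 5.65 with a median of 3.83 (adjusted p = 0.016), and its fitted fold rests on the few reads of the no-suffix libraries. *Fap*, the fibroblast activation protein, was at 2.45 and 0.15 against 2.63 to 5.77 (-3.30 ± 0.92, adjusted p = 0.038), so the groups were barely apart. Its call was kept in only 1 of 8 fits without a library. *Ptn*, the growth factor pleiotrophin, was at 4.11 and 1.56 against 5.14 to 7.12 (-2.93 ± 0.47, adjusted p = 0.005). *S1pr3*, a sphingosine phosphate receptor, fell by 2.95 ± 0.57 (adjusted p = 0.009) and *Sned1*, a matrix glycoprotein, by 3.42 ± 0.91 (adjusted p = 0.032). *AW551984* fell by 2.95 ± 0.79 (adjusted p = 0.032). The calls of *Sned1* and *AW551984* were each kept in 3 of 8 fits without a library. Calls given above that were kept in few of these fits included *Krt19* (2 of 8) and *C5ar1*, *Cyr61*, *Hmgcs1* and *Sfrp1* (3 of 8 each). *Mcpt8*, a basophil and mast cell protease gene, had 37 and 9 reads against 134 to 709, and *Kit*, a receptor of mast cells and other progenitors, was at 2.32 and 2.21 against 3.95 to 5.48 (-2.58 ± 0.48, adjusted p = 0.008), while *Ms4a2*, a mast cell receptor chain, did not pass (0.58 ± 0.21, adjusted p = 0.092).

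The 6 suffix libraries also varied among themselves, and their largest spreads are given without a test. The 4 Y-linked genes *Ddx3y*, *Kdm5d*, *Eif2s3y* and *Uty* were among the 10 widest because of 685-5. Library 697-3 was the suffix library nearest to the no-suffix pair, with the lowest suffix values of *H19* (5.48), *Igf2* (6.12), *Eln* (8.45), *Agtr2* (1.08), *Tspan11* (-0.89) and *Pdgfra* (5.51), but its macrophage list mean was 4.34, the highest of the suffix libraries and far under the 6.32 and 6.02 of 468-4 and 697-4. It also had the highest *Acta2* (13.4). Library 685-5 had the highest *C3*, the central complement component (6.41, against 1.82 in 697-3), *Fmo2*, a lung monooxygenase (4.35), and *Msln* (9.37). *Nme2* was at 2.19 in 685-7 and at 6.60 to 7.60 in the other 5. It overlaps *Nme1*, so the split of reads between these genes is uncertain. *Sprr1a* was at -0.26 in 697-1 and at 1.85 to 4.02 in the rest.

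The loss of 1 copy of *Sp3* gave no call in the same fit. Of 13833 genes, none differed between Sp3+/- and Sp3+/+ libraries at an adjusted p under 0.05 by edgeR (656 at an unadjusted p under 0.05), none by limma-voom and 18 by DESeq2. *Sp3* itself was lower by 0.48 in the Sp3+/- libraries and did not pass by edgeR either. Its levels overlapped, at 5.92 to 6.75 in Sp3+/+ and 5.70 to 6.16 in Sp3+/- libraries. The lack of calls therefore does not show that the loss of 1 copy has no effect.

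In the Sp3-/- libraries, which share the missing suffix, some of these levels were near those of the no-suffix pair and some were not. *Csf1r* was at 7.49 to 8.87 there and *Lpl* at 7.85 to 8.78. *Eln* was at 0.34 to 5.36, below both no-suffix libraries, and *Mki67* at 5.09 to 6.61. *Acta2* was at 9.48 to 10.9, below all 8 *Sp3*-carrying libraries, while *Igf2*, at 6.10 to 7.56, was above the no-suffix pair. No test was run on these values.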

How the data were processed

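RNA from primary E15 fetal lung mesenchymal cells was sequenced as single-end reads. Per the labels and methods, the authors checked reads with FastQC 0.10.1, aligned them to mm10 with STAR 2.4.5a and counted them with HTSeq; the annotation and the strand setting are not given in the sources used here. The deposited values are raw read counts per gene, taken from column 2 of each table. Rows that name no gene (38.8% to 40.9% of reads in the 8 libraries) were left out.

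The filter was a CPM over 1 in any of the 8 libraries and kept 13833 genes. TMM-scaled counts were fitted in edgeR 4.0.16 (R 4.3.3) by robust quasi-likelihood, with genotype and suffix as terms. The study used limma-voom, which was an alternative here (limma 3.58.1), as was DESeq2 1.42.0. Levels are log2 CPM scaled over all 11 libraries with a prior count of 2. The fit called 97 of 100 genes changed 4-fold and 80 of 100 changed 2-fold in simulated counts, with none of the wrong sign. It also called 13 genes that had been left unchanged. Each gene was drawn independently and 200 of 13833 were changed, unlike these libraries, where 20.0% were called. The contrasts of 468-4 and 697-4 used the mean of each class, with the spread pooled. Other scalings, filters, libraries left out and the leading number as a term were tried.

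The genes named were the 10 largest changes per direction above 2 log2 CPM without overlap, up to 3 called and the 3 highest members of each of 34 lists, the 5 largest changes per single-library contrast, the 10 widest spreads, and genes of the study. A few others are named as markers. Members and lists were chosen with earlier results of these data known. Lists are described by counts and medians, with no test. Promoter windows and coordinates come from RefSeq (GRCm38.p6). Some genes that this rule names are not reported here.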

Additional observations from a re-analysis of the deposited data

Results flagged for a closer look

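Of 232 levels checked among the 6 suffix libraries (33 lists and the named genes), 26 had 1 library whose gap to the next value, divided by the whole range, exceeded Dixon's critical value for 6 samples. Chance alone gives such a gap in about 1 in 20, and the genes with the widest spread had been picked for it. Each value is a level in log2 CPM.

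Library 468-3 was low in 10 of them. Its mean was 3.35 for macrophage genes, where the other 5 suffix libraries were at 4.06 to 4.34, and 2.38 for chemokine and cytokine genes (others 2.92 to 3.11). Of single genes, it was low in *Atp6v0d2* (1.93), *C3ar1* (3.31), *Ccl4* (-0.51), *Ctss* (4.46), *Cybb* (3.18), *Emr1* (3.36), *Lcp1* (4.85) and *Lpl* (5.47). This library has the only title ending in 2, and the fit without it called 2703 genes.

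Library 685-5 stood apart in the sex-linked list (-0.86), in *Ddx3y* (-2.73), *Eif2s3y* (-3.33), *Kdm5d* (-3.93), *Uty* (-3.60) and *Xist* (9.29). It was also high in the erythroid list (3.39), in *Alas2* (4.01) and in *Cdkn2a* (6.52, others 5.97 to 6.14), which was still below the no-suffix values.

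Library 685-2 was high in the lysosome list (8.31), *Ctsb* (10.9) and *Tie1* (-1.89). Library 697-3 was low in the growth and imprinted list (6.99, others 7.41 to 7.64) and high in *Csf1* (9.72), the macrophage growth factor gene. Library 685-7 was high in *Frzb* (3.70) and low in *Nme2* (2.19).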

How the results depend on the processing

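Of 13833 genes, 2761 were called, and counts by other tools, scalings and filters stayed within 1.5 times of that, except 1356 with all 11 libraries in the fit and 1397 with the leading number as a term. Leaving out 1 library gave 356 (without 468-4) to 3273 (without 697-3), and 1366 without 697-4. The 468-4 contrast (1363) gave 2060 by DESeq2 and 562 (without 697-1) to 1905 (without 697-3); leaving out 685-2 gave 788 and 685-7 gave 886. The 697-4 contrast (369) gave 917 by DESeq2 and 219 (without 685-7) to 734 (without 697-3), and 235 without 685-5. DESeq2 called 25 genes for the difference between the contrasts and 18 for genotype, where edgeR called none. Leaving out 468-4 or 697-4 gives no value for its own contrast or for the difference. The values within a leading number, DESeq2 and limma-voom for genotype, and limma-voom for lists were added after seeing the data.

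List medians within 468 and 697 were 3.12 and 1.86 for macrophage, 0.60 and 0.34 for lysosome, 1.23 and 0.79 for lipid storage, -0.80 and -0.53 for lung mesenchyme transcription factors, 0.62 and 0.16 for immediate early genes, and 0.094 and 0.524 for neutrophil and mast cell genes. The pericyte median was -0.59 within 468. The neutrophil and mast cell median (4 genes, 0.35) turned to -0.031 without 468-4 and was at most 0.377 with another library left out. With 1 library left out, medians ran from -0.80 to -0.55 for DNA replication, -1.76 to -1.07 for G2 and mitosis, 0.36 to 0.67 for lysosome, 0.73 to 1.03 for lipid storage, -0.88 to -0.41 for pericyte, and -0.86 to -0.56 for the transcription factors. No paired analysis was possible because the replicate numbers only name libraries in accession order; libraries that share a leading number were compared with that number as a term (1397). The cause of these shifts was not tested. Among values of single named genes under these settings, 304 lost their call, 43 gained it and none that was called reversed. With 2 no-suffix libraries of different genotypes, small differences of low genes could not be resolved.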
